A study of Homo sapiens with 4 samples.

Results

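The enzymes examined here make serine from glucose carbon and pass its one-carbon unit to folate. They are the products of PHGDH, PSAT1, PSPH, SHMT1, SHMT2, MTHFD1, MTHFD1L, MTHFD2, MTHFD2L and ALDH1L2. Members were the probe sets that the platform annotation assigned to exactly 1 gene, where that gene was among these 10, which gave 28 of the 54613 probe sets in the table. They covered 10 of the 19775 genes that had a probe set of their own. The rule uses the genes' biochemical role and no measured value, but the genes were chosen with earlier results of these data known. RNA came from KYSE170, an established human line from an oesophageal squamous cell carcinoma. Cells were left untreated (2 arrays) or were exposed for 12 h to ethyl-3,4-dihydroxybenzoate (EDHB), an inhibitor of prolyl hydroxylases, at 50 µg/ml (2 arrays). The labels name no vehicle for the untreated cells and do not say whether replicates were separate cultures, so a p-value reflects only spread among the arrays at hand, which may be technical. All 4 arrays are from 1 cell line, and 2 arrays per group limit the precision.

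PHGDH oxidises the glycolytic intermediate 3-phosphoglycerate, PSAT1 transfers an amino group from glutamate to the product, and PSPH removes the phosphate to give serine. The serine hydroxymethyltransferases SHMT1 (cytosol) and SHMT2 (mitochondria) split serine into glycine and a one-carbon unit bound to tetrahydrofolate. MTHFD1 in the cytosol, and MTHFD2, MTHFD2L and MTHFD1L in mitochondria, interconvert the folate-bound units. MTHFD1L releases formate, which feeds purine and thymidylate synthesis. Mitochondrial ALDH1L2 oxidises a folate-bound unit to carbon dioxide and yields NADPH. The transcription factor ATF4 is known to act on several of these genes.

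In the table, rows of the second replicate pair were not aligned with those of the first, and the alignment was restored from the untreated levels under a layout inferred from the values. This gave both replicates for 54465 probe sets (99.7%), including 26 of the 28 members. Because untreated levels were used for matching, the closeness of the untreated arrays is favoured by the method. Both missing members belong to PSPH, and their levels are given from the replicate 1 pair alone. For the 26 restored members, the EDHB levels, which the matching did not compare, differed between replicates by a median of 0.0755 log2 units and by at most 0.305. Median linear intensity was between 23.3 and 23.5 on the 4 arrays. Of 6 measured epithelial markers, 5 (KRT5, SFN, DSG3, CDH1 and EPCAM) lay above the median probe set (4.55 on the log2 scale) on every array. KRT14 lay below it. All 3 leukocyte markers lay below it (1.68 to 4.48). Of the other lists, 1 of 3 fibroblast markers (PDGFRB) and 1 of 2 endothelial markers (PECAM1) lay above it, at levels of at most 4.86 and 5.21. In RNA of whole cultures, fewer expressing cells and less RNA per cell cannot be told apart.

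After EDHB, PHGDH and PSAT1, the first steps of serine synthesis, and the mitochondrial SHMT2 stood higher. PSPH, the last step, was read unevenly. Its restored probe set changed by 0.22 log2 units, and its 2 brighter ones, not restored, rose by 0.28 and 1.08 within replicate 1. Most of the other enzymes stood close to their untreated level. The log2 change was 0.74 for PHGDH, 0.72 for PSAT1 and 0.32 for SHMT2, against 0.20 for MTHFD2 and -0.02 for MTHFD1. In limma's test without an intensity trend, 0 of the 10 genes passed an adjusted p of 0.05 over 19752 genes, a threshold that 0.0101% of all genes (2) passed. Those 2 genes, MIR210HG and NMRAL2P, are named after their values were seen. At an unadjusted p under 0.05, PHGDH, PSAT1 and SHMT2 were higher (8.85% of all genes) and 0 members were lower (8.05% of all genes); 16.9% of all genes passed in either direction. With the spread modelled as a trend over intensity, PHGDH, PSAT1 and SHMT2 rose at an adjusted p under 0.05, 3 of 10 members against 1.36% of all genes higher by that rule (268 genes, with 2.37% called in either direction). These 3 calls rest on all 4 arrays. A fit with 1 array left out keeps a lone array in a group, too few to show whether the calls hold. In those fits the log2 change was 0.60 to 0.88 for PHGDH, 0.65 to 0.79 for PSAT1 and 0.27 to 0.37 for SHMT2. On both EDHB arrays, 4 members stood above both untreated arrays (23.3% of all genes) and 0 stood below (22.6%), so that count alone is not far from the background. At least 1.5-fold within both replicates, 2 members were higher, against 0.704% of all genes, and 0 were lower, against 0.284%. The median log2 change of the 10 members was 0.14 (0.09 within replicate 1 and 0.23 within replicate 2), beside -0.0014 over all genes.

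**Figure D1:**
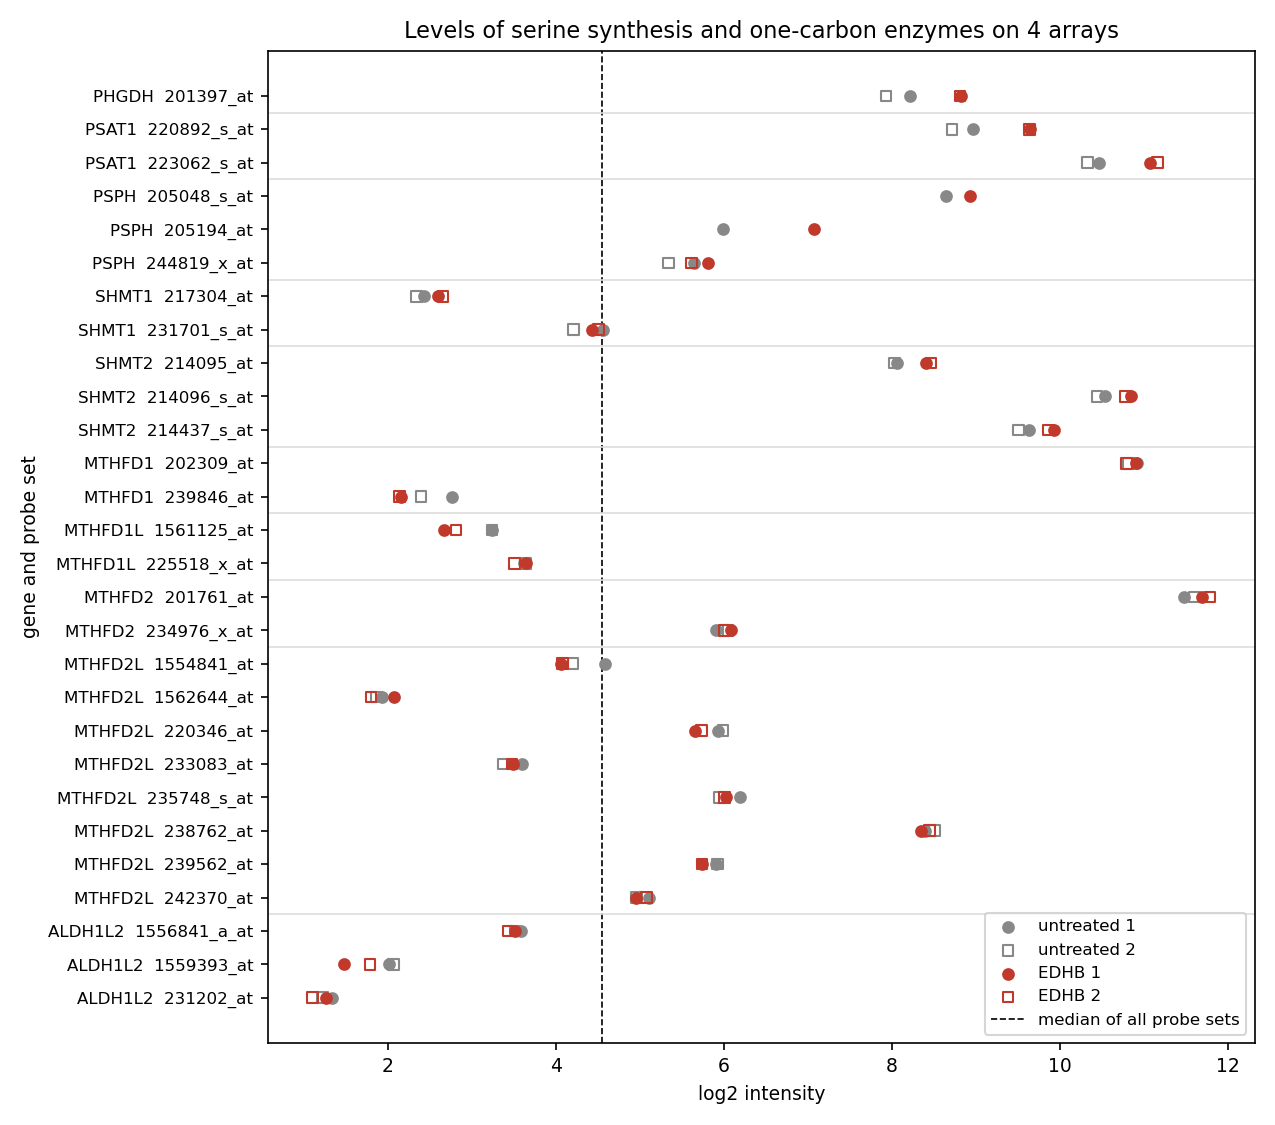
Each row is 1 probe set of a serine synthesis or one-carbon enzyme, and the horizontal axis gives its log2 intensity on each of the 4 arrays (grey, untreated; red, EDHB; circles, replicate 1; squares, replicate 2; dashed line, median of all probe sets). The red symbols lie to the right of the grey ones for PHGDH, both PSAT1 and all 3 SHMT2 probe sets; 2 PSPH probe sets have circles only, because their replicate 2 values were not restored.

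PHGDH, the dehydrogenase that commits carbon to serine, was read by 1 probe set of its own. Its log2 level was 8.22 and 7.93 on the untreated arrays and 8.82 and 8.81 on the EDHB arrays. The groups did not overlap, and the EDHB arrays were closer together than the untreated ones. The means were 8.08 ± 0.20 and 8.82 ± 0.01 (SD, n = 2 arrays each), a 1.67-fold difference with a log2 change of 0.74 (SE 0.116). The change was 0.60 within replicate 1 and 0.88 within replicate 2. limma's adjusted p was 0.110 without the intensity trend and 0.0324 with it. PHGDH is also read by a probe set annotated to it together with MZT2A and MZT2B, which cannot be assigned to 1 gene. That probe set differed by -0.02 between the groups.

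PSAT1, the aminotransferase of the pathway, was read by 2 probe sets with the same direction. On the brighter one the log2 level was 10.47 and 10.33 untreated and 11.08 and 11.17 after EDHB. On the other it was 8.97 and 8.72 untreated and 9.65 and 9.64 after EDHB. On both, each EDHB array lay above each untreated array. The brighter probe set gave means of 10.40 ± 0.10 and 11.12 ± 0.06 (SD, n = 2 arrays each), a 1.65-fold difference, and the other a 1.74-fold difference. The log2 change of the brighter probe set was 0.72 (SE 0.0897), with a limma adjusted p of 0.0958 without the trend and 0.0131 with it. When every probe set was tested on its own with the trend, this was the only one of the 26 restored members that passed (adjusted p of 0.0465 over 54465 probe sets).

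PSPH, the phosphatase that releases serine, was read unevenly. The restored probe set, the dimmest of its 3 on untreated array 1, stood at 5.65 and 5.35 untreated and at 5.81 and 5.62 after EDHB. Its groups overlapped, with a log2 change of 0.22 (SE 0.135) and a limma adjusted p of 0.496 without the trend and 0.479 with it. The second-brightest went from 5.99 to 7.07 within replicate 1, a 2.12-fold difference without a replicate, and the brightest went from 8.64 to 8.93. For these 2 the replicate 2 value was placed with a posterior of 0.929 and 0.657, under the 0.95 required. Neither entered the tests made at that minimum. At a posterior minimum of 0.5 the brightest was tested, with a log2 change of 0.41 and a limma adjusted p of 0.154 without the trend. Within replicate 1, 4 member probe sets were at least 1.5-fold higher (1.25% of all probe sets) and 1 was at least 1.5-fold lower (0.853%). The 4 were those of PHGDH and PSAT1 and the second-brightest of PSPH. PSPH has a near-identical pseudogene, PSPHP1, and probes of the x_at and s_at kinds may also bind other transcripts, so the split of signal between them is uncertain. The restored PSPH probe set, the one tested, is of the x_at kind and the brightest is of the s_at kind. The second-brightest is of neither kind.

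Promoters of the members are shown where a reader can set the letters beside the values. RefSeq promoter windows (GRCh38.p14) of the 250 bases before a transcript start were found for 7 of the 10 genes, in 11 windows; PSPH, SHMT2 and ALDH1L2 had none. They were searched on both strands for the core of the C/EBP-ATF response element (TGATGNAA), the E-box (CACGTG), the core of the hypoxia response element (ACGTG) and the core of the antioxidant response element (TGACNNNGC). Over 35116 promoters of that length, these letters occurred in 3.14%, 6.34%, 18.5% and 10.9%. Every E-box also holds the hypoxia core on each strand, so these matches overlap. The 4 windows below belong to both genes with the largest changes and to a pair of mitochondrial enzymes with a motif in the window shown, all on the plus strand, 5′ to 3′, with capitals marking the motifs found. They are PHGDH (chr1:119711684-119711933), PSAT1 (chr9:78296875-78297124), MTHFD2 (chr2:74198365-74198614) and MTHFD1L (chr6:150866236-150866485).
PHGDH: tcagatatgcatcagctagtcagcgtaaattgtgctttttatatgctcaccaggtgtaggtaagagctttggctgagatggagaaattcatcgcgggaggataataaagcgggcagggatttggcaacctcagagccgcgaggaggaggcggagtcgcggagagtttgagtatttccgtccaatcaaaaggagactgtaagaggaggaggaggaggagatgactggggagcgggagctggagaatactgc
PSAT1: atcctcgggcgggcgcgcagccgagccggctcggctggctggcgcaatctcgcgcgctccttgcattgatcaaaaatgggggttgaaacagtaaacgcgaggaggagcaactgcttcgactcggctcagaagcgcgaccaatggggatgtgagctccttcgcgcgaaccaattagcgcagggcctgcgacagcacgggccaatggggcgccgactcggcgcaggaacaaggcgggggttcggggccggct
MTHFD2: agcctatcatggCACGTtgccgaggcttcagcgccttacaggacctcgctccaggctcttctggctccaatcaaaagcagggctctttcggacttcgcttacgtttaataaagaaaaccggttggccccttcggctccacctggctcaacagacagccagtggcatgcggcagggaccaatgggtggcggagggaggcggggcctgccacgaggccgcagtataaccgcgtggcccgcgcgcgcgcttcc
MTHFD1L: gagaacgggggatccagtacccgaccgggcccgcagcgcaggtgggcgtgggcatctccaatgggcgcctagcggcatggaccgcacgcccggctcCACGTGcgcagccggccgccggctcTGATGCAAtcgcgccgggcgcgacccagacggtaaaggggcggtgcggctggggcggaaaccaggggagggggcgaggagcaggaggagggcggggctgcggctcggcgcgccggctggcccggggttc
The PHGDH and PSAT1 windows held none of the 4 motifs, which says only that these letters are not in these windows. The MTHFD2 window held CACGT, the reverse of the hypoxia core, starting 238 bases before the transcript start. The MTHFD1L window shown held CACGTG starting 154 bases and TGATGCAA starting 129 bases before it. MTHFD1L had 4 windows, of which 2, overlapping each other, held these motifs and 2 held none of the 4 motifs. MTHFD1 (chr14:64388103-64388352) held CACGTG starting 15 bases before its start. A match is a description of the letters, and no binding was measured here.

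In the cytosol, neither SHMT1 nor MTHFD1 passed the test. The SHMT1 probe set used stood at 4.56 and 4.21 untreated and 4.43 and 4.51 after EDHB, so the groups overlapped, with a log2 change of 0.08 (SE 0.135, limma adjusted p of 0.820). Its direction turned between the replicates, at -0.13 and 0.29, and the change was -0.093 without untreated replicate 2. Its group means, 4.39 and 4.47, lay below the median of all probe sets (4.55). A dimmer SHMT1 probe set, below that median on every array, went from 2.43 and 2.34 to 2.60 and 2.66. The brighter signal lay on 2 probe sets annotated to SHMT1 and MIR6778 together, which differed by -0.06 (the brighter) and -0.03 with overlapping groups. MTHFD1, the cytosolic trifunctional enzyme, stood at 10.92 and 10.82 untreated and 10.91 and 10.80 after EDHB on its brighter probe set. The change was -0.02 (SE 0.087), smaller than the difference between the replicates of either group, with a limma adjusted p of 0.936. A dim MTHFD1 probe set went from 2.76 and 2.40 to 2.16 and 2.14, at levels not shown to be above background.

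Among the mitochondrial enzymes, SHMT2 was the one that passed with the intensity trend. SHMT2, which makes most of the mitochondrial one-carbon units, was read by 3 probe sets, and on each the EDHB arrays lay above the untreated ones. The brightest stood at 10.54 and 10.45 untreated and 10.85 and 10.79 after EDHB. The next stood at 9.64 and 9.51, then 9.93 and 9.87, and the dimmest at 8.06 and 8.04, then 8.40 and 8.47. The 3 probe sets thus gave 1.25-, 1.25- and 1.31-fold differences. For the brightest, the means were 10.50 ± 0.07 and 10.82 ± 0.04 (SD, n = 2 arrays each). Its log2 change was 0.32 (SE 0.0818), with a limma adjusted p of 0.173 without the trend and 0.0486 with it, close to the threshold. With dim probe sets removed before the fit, PHGDH and PSAT1 passed (limma adjusted p of 0.0323 and 0.0235) and SHMT2 did not (0.0690).

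MTHFD2, the mitochondrial dehydrogenase and cyclohydrolase often abundant in tumour cells, showed a smaller difference. On the brighter probe set it stood at 11.48 and 11.61 untreated and at 11.69 and 11.79 after EDHB. The groups did not overlap, and the difference, 1.15-fold, was wider than the gap within either group. The log2 change was 0.20 (SE 0.09), with a limma adjusted p of 0.351 without the trend and 0.155 with it. The dimmer probe set went from 5.90 and 6.05 to 6.09 and 6.01, with overlapping groups.

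MTHFD2L, the paralogue of MTHFD2, had 8 probe sets, whose log2 changes ran from -0.32 to 0.04. The brightest stood at 8.39 and 8.51 untreated and 8.35 and 8.45 after EDHB, with a change of -0.05 and a limma adjusted p of 0.836. On 3 others the EDHB arrays lay below the untreated ones, by -0.32, -0.26 and -0.18, and their limma adjusted p over all probe sets lay between 0.317 and 0.426. MTHFD1L, the mitochondrial formate-releasing synthetase, had 2 probe sets of its own, both below the median probe set. On the brighter it stood at 3.63 and 3.64 untreated and 3.65 and 3.51 after EDHB, with a change of -0.05 and a limma adjusted p of 0.815. On the dimmer it stood at 3.24 on both untreated arrays and at 2.68 and 2.81 after EDHB, with a limma adjusted p of 0.227 over all probe sets. A brighter probe set annotated to MTHFD1L together with LOC101928195 and LOC100996643 went from 9.40 and 9.46 to 9.22 and 9.24. Another with the same annotation went from 7.89 and 7.82 to 7.95 and 7.78, with overlapping groups and a log2 change of 0.0078. The 3 ALDH1L2 probe sets were all below the median probe set, and the brightest went from 3.59 and 3.52 to 3.52 and 3.43, with a limma adjusted p of 0.701. These dim levels bear on the array signal and do not show whether ALDH1L2 or MTHFD1L was made.

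**Figure D2:**
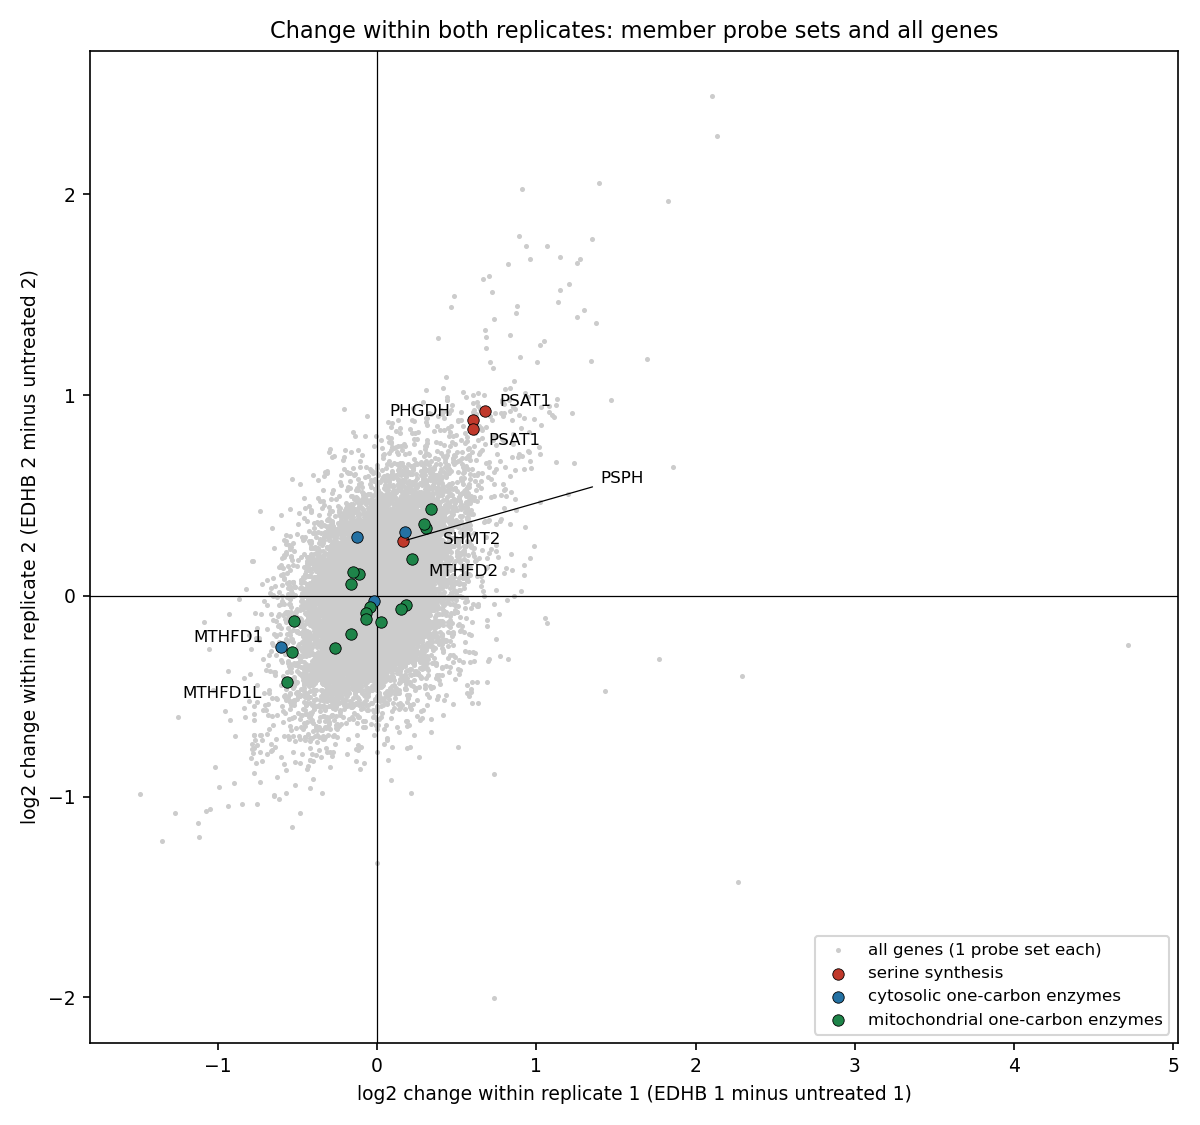
Each coloured point is 1 restored member probe set, placed by its log2 change within replicate 1 (horizontal) and within replicate 2 (vertical), over grey points for 19752 genes. PHGDH and both PSAT1 probe sets lie at 0.60 to 0.68 and 0.83 to 0.92, the SHMT2 probe sets at 0.29 to 0.34 and 0.34 to 0.43, and the other members nearer to 0 or below it.

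Over all 26 restored member probe sets, EDHB arrays lay above both untreated arrays on 8 and below them on 6. Over all restored probe sets the shares were 20.2% and 21.8%. The 8 were those of PHGDH, PSAT1 (2), SHMT2 (3), the brighter of MTHFD2 and the dimmer of SHMT1. The 6 were 3 of MTHFD2L and the dimmer ones of MTHFD1, MTHFD1L and ALDH1L2. Of the 6, 3 were below the median probe set.

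Other genes of the surrounding pathways were taken from lists chosen by function, with earlier results of these data known. None of their genes passed limma's test without the trend. Without the trend, at an unadjusted p under 0.05, which 8.85% of all genes passed as higher and 8.05% as lower, 2 of 7 serine transporters were higher and 0 lower, 3 of 13 methionine cycle and transsulfuration genes were higher and 1 lower, and 3 of 9 transcription factors were higher and 1 lower. The trend test called 1.36% of all genes higher and 2.37% in either direction, and with any 1 array left out it called 0 genes, so the trend calls below need all 4 arrays. Among 7 serine transporters, 2 rose by the trend test (1.36% of all genes) and 0 fell, with a median log2 change of 0.12. SLC1A4, an exchanger of serine and other small neutral amino acids, went from 6.13 and 5.91 to 7.40 and 7.59, which is 2.78-fold (limma adjusted p of 0.0700 without the trend and 0.00843 with it). Dimmer restored SLC1A4 probe sets gave a 3.29-fold difference and, below the median probe set, a 1.11-fold difference. SLC38A2, a sodium-coupled transporter, had a log2 change of 0.42 (limma adjusted p of 0.124 without the trend and 0.0128 with it). Among 13 genes of the methionine cycle and transsulfuration, which draws on serine to make cystathionine, 1 rose by the trend test (1.36% of all genes) and 0 fell, with a median of 0.04. That gene was CTH, cystathionine gamma-lyase, at 6.68 and 6.54 untreated and 7.88 and 8.10 after EDHB, 2.60-fold (0.0700 without and 0.00843 with the trend, limma adjusted p). CBS, which joins serine to homocysteine, stood at 4.18 and 4.75 and then at 5.20 and 5.46. Its limma adjusted p was 0.166 without the trend and 0.0866 with it. Another restored CBS probe set, below the median probe set, changed by -0.10. A CBS probe set that was not restored went from 5.15 to 5.92 within replicate 1.

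Genes that handle folate, break down glycine or serine, or make purines showed no call in either fit. Of 11 measured genes of folate uptake and reduction, 2 were higher and 2 lower at an unadjusted limma p under 0.05 (8.85% and 8.05% of all genes), with a median of -0.03. SLC25A32, the carrier that brings folate into mitochondria, went from 9.96 and 10.19 to 9.70 and 9.45, a log2 change of -0.50 with a limma adjusted p of 0.179 without the trend and 0.0724 with it. Of 6 measured genes of glycine cleavage and glycine or serine breakdown, 0 were higher and 1 lower at that unadjusted p (the same shares of all genes), with a median of -0.03. SRR, serine racemase, had a log2 change of -0.36 (-0.15 and -0.58 within the replicates, limma adjusted p of 0.260). Dimmer SRR probe sets changed by -0.40 and, with overlapping groups, by -0.14 and -0.02. Of 12 measured purine synthesis genes, 1 was higher and 2 lower at an unadjusted p under 0.05 (8.85% and 8.05% of all genes), with a median of -0.05. ADSS1, an adenylosuccinate synthase, had a log2 change of 0.65 (limma adjusted p of 0.154). A dimmer ADSS1 probe set changed by -0.05 with overlapping groups.

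Of 9 measured genes for making other non-essential amino acids, 0 were called in either fit and 1 was lower at an unadjusted p under 0.05 (8.05% of all genes), with a median of -0.05. PYCR3, of proline synthesis, had a log2 change of -0.33 (limma adjusted p of 0.182). The asparagine synthetase gene ASNS was represented in the test by a dim probe set. A brighter one went from 8.53 to 9.57 within replicate 1, and its replicate 2 value could not be told apart from that of the brightest PSPH probe set. Of 9 measured transcription factors known to act on these genes, 2 rose by the trend test (1.36% of all genes) and 0 fell, with a median of 0.14. ATF4 had a log2 change of 0.58 (0.48 and 0.69 within the replicates; limma adjusted p of 0.109 without the trend and 0.0187 with it). ATF3 went from 7.04 and 6.79 to 8.17 and 7.77, with a limma adjusted p of 0.110 without the trend and 0.0333 with it. Dimmer ATF3 probe sets changed by 0.72 and 0.03. ATF5 was the 1 factor lower at an unadjusted p under 0.05 (8.05% of all genes). Its log2 change was -0.28, with a limma adjusted p of 0.200 without the trend and 0.116 with it. MYC, MYCN and HIF1A had overlapping groups.

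**Figure D3:**
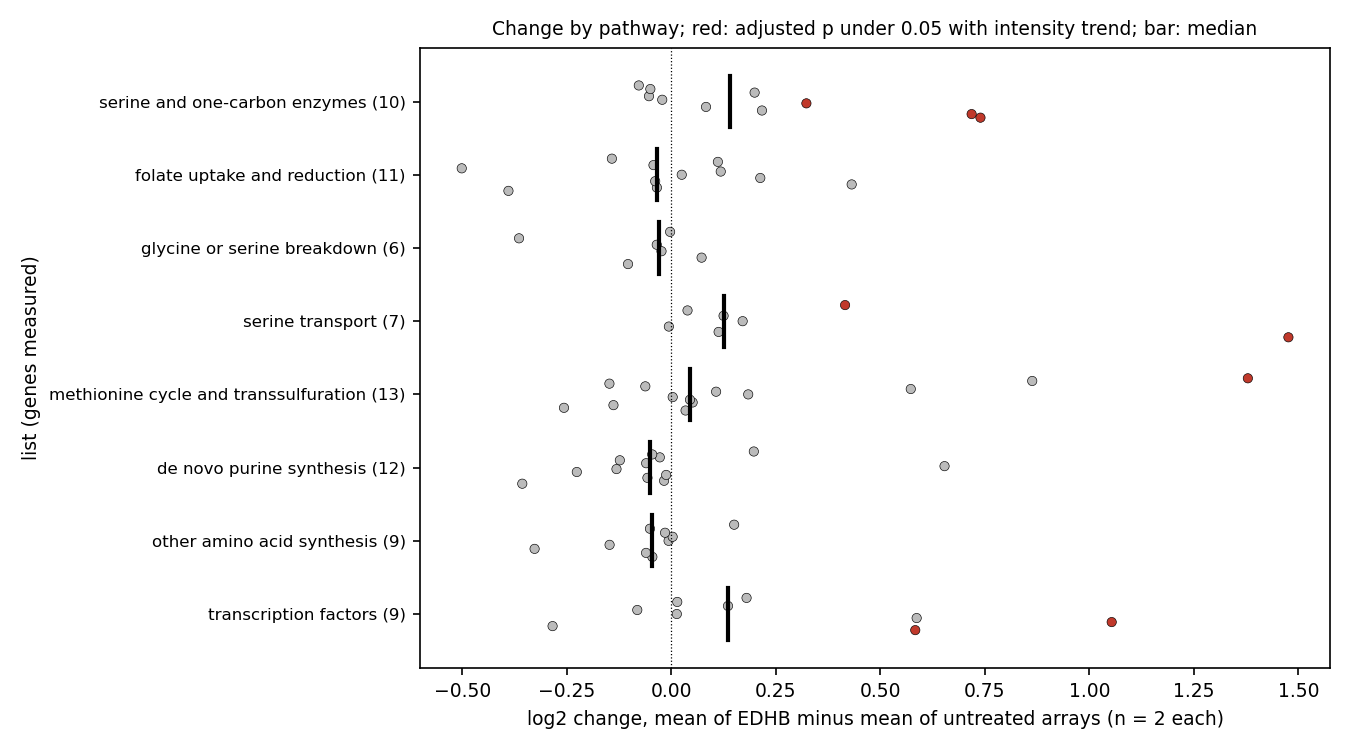
Each point is 1 gene of a list, placed by its log2 change (mean of the 2 EDHB arrays minus mean of the 2 untreated arrays); red points passed the trend test at an adjusted p of 0.05, bars are list medians, and vertical scatter within a list has no meaning. Red points are found among the serine and one-carbon enzymes (3 of 10), the serine transporters (2 of 7), the methionine cycle and transsulfuration genes (1 of 13) and the transcription factors (2 of 9).

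The mean profile of PHGDH, PSAT1 and PSPH, with each gene centred on its own mean, was -0.16 and -0.40 on the untreated arrays and 0.30 and 0.26 on the EDHB arrays. By Euclidean distance over the 4 arrays, among genes above the median probe set, the nearest profiles were those of PJA2 (0.0262 log2 units), BHLHE41 (0.0313) and TXNIP (0.0335). PJA2, a ubiquitin ligase, had a log2 change of 0.55, BHLHE41, a transcriptional repressor of the circadian clock, 0.55, and TXNIP, an inhibitor of thioredoxin, 0.59. Nearness over 4 arrays was chosen from all genes and is a description only.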

How the data were processed

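Total RNA was turned into biotin-labelled cRNA for Affymetrix arrays, per the labels' protocols. The deposited values are linear intensities, 1 for each probe set on each array. RMA produced them, per the submitters' processing notes, in software whose name and version are not given in the sources used here. This method equalises the arrays' distributions, so a change shared by most genes would be removed. Values were turned into log2 with no pseudocount.

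The deposited replicate 2 columns ran in another row order. Their layout was inferred as a list at least 2-fold higher, a list at least 2-fold lower, then all others by ID. A forward-backward alignment of untreated log2 levels (Student's t, scale 0.15, 3 degrees of freedom) placed each value, and rows with a posterior of 0.95 or more were kept. This left 148 probe sets unplaced. Of the 148 and 45 values in these lists only 118 were placed, so strongly changed probe sets are under-represented. The alignment and the fit were tested on simulated data.

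The platform annotation gave 1 gene for 41091 probe sets, several for 1801 and none for 11721. Each gene was read by its brightest restored probe set with 1 gene, and dim ones were kept. The groups were compared in R 4.3.3 with limma 3.58.1 (lmFit, eBayes, two-sided, Benjamini-Hochberg over 19752 genes, no block, residual degrees of freedom 2 and prior 3.05). Alternatives were an intensity trend, a replicate block, each array left out, other probe set rules, scalings and a filter on dim ones. Restoring used Python 3.11.15, numpy 2.4.6, pandas 2.3.3 and numba 0.67.0. All members were described. From each pathway list, at most 5 genes changed at least 1.5-fold the same way within both replicates were named, or else the gene above the median probe set with the largest mean change. SLC38A2, ATF4, ATF5, DDIT3, EPAS1, NFE2L2, MYC, MYCN, HIF1A and ASNS were added after their values were seen. The 3 nearest profiles were also named. The members and lists were chosen with earlier results of these data known.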

Additional observations from a re-analysis of the deposited data

Results flagged for a closer look

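The second-brightest PSPH probe set lies outside the tested values, because its replicate 2 value was not restored at the required posterior. Within the replicate 1 pair its log2 change was 1.08, the widest of the 28 member probe sets in that pair, while the restored PSPH probe set changed by 0.16 there. The reason for the difference between probe sets of the same gene was not tested.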

How the results depend on the processing

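The number of genes called, 2 in the test described first (2 higher, 0 lower), moved with most choices. It was 469 with the intensity trend (268 higher, 201 lower), 7 with the median over probe sets (5 and 2), 44 with arrays centred on their medians (32 and 12), 40 with cyclic loess (30 and 10) and 595 of 12379 genes with dim probe sets removed (360 and 235). It was 0 with all probe sets tested singly, 0 with a posterior minimum of 0.5, and 81 with every probe set and the trend together (49 and 32). It was 0 to 0 with each array left out in turn, with or without the trend; a group then has a lone array that is assumed to vary like the others. The count of members called, 0, was 3 with the trend, 2 with dim probe sets removed and 1 with every probe set and the trend. With the replicate number as a block, 0 genes were called, and 0 with the block and the trend together; PHGDH, PSAT1 and SHMT2 then had a limma adjusted p of 0.277 (0.184 to 0.185 with the trend). The numbers are not known to pair the arrays: same-numbered arrays deviated together at a correlation of 0.109 across genes. The fits that combine the trend with a block, a left-out array or every probe set were added after seeing the data. Of the alternative values of the members, 172 were unchanged, 5 passed the threshold, 1 moved and 15 turned sign. Unchanged meant the same direction and side of the threshold. For the replicate 1 pair, which has no p-value, it meant a change within the replicate spread. The value that moved beyond that spread was PSAT1, at 0.60 from the replicate 1 pair. The 15 were all in genes whose change was near 0. SHMT1 ran from -0.093 (without untreated replicate 2) to 0.26 with an array left out, and was -0.13 from the replicate 1 pair. MTHFD1 ran from -0.077 to 0.033 (without EDHB replicate 2) with an array left out, with 0.029 without untreated replicate 1, and over all its alternatives from -0.43 (its dim probe set) to 0.033. MTHFD1L ran from -0.12 to 0.015 (without EDHB replicate 2) with an array left out, was 0.024 from the replicate 1 pair and was -0.50 on its dimmer probe set. MTHFD2L ran from -0.11 to 0.0078 (without untreated replicate 2) with an array left out, and was 0.0021 without EDHB replicate 1 and 0.042 on its dimmest probe set, while its other probe sets reached -0.32. The cause was not tested. Values from the replicate 1 pair are left out of the ranges that follow, and fits with an array left out are included. Across alternatives, the log2 change was 0.60 to 0.88 for PHGDH, 0.65 to 0.80 for PSAT1 and 0.27 to 0.39 for SHMT2. For PSPH it was 0.06 to 0.41, with the upper end from its brightest probe set at a posterior minimum of 0.5. The lowest limma adjusted p was 0.0323, 0.0131 and 0.0486 for PHGDH, PSAT1 and SHMT2, against 0.277 with the block.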

Other observations

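Outside the pathway, the immediate-early transcription factors EGR1 and FOS differed between the replicates, and were picked after their values were seen. EGR1 had a log2 change of 4.72 within replicate 1 and -0.25 within replicate 2. FOS had 1.77 and -0.31. PHGDH and PSAT1 were higher within both replicates, by 0.60 and 0.88 and by 0.60 and 0.83.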
